A study of Homo sapiens with 6 samples.

Results

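The genes SLCO5A1, HFM1 and PDE3A each held a short stretch with a peak in all 4 deposited lists of RNA crosslinked to HSP70 proteins. The best peak of SLCO5A1 scored above percentile 90 of every list, that of PDE3A in 3 lists and that of HFM1 in 2. The genes were selected on their scores, so scores, ranks and presence in the lists are given here as a description, with no test. All peaks inside the 3 gene bodies were taken as members. There were 27 of them among 9974 peaks in all, made up of 8 in SLCO5A1, 15 in HFM1 and 4 in PDE3A. Replicates 1 and 2 of HSPA1A contributed 7 and 8, and those of HSPA8 contributed 5 and 7. Pairs of values below follow the replicate number. The main region of each gene is the place of its highest peak in HSPA8 replicate 1.

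The series used FLASH-seq, which sequences the RNA that stays crosslinked to a tagged protein after ultraviolet irradiation and purification of that protein. The cells were HEK293 Flp-In T-Rex, an established human embryonic kidney line that carries a transgene under a tetracycline switch. The baits (GFP, HSPA1A and HSPA8, each tagged with 3xFLAG-HBH and induced with 1 µg/ml tetracycline) had 2 biological replicates each. All libraries shared the line and the induction, so each bait was present from a transgene beside the cell's own HSP70 proteins. Peaks of the GFP bait were not analysed here, and no value below has a control bait beside it. HSPA1A is the stress-inducible HSP70 chaperone and HSPA8 its constitutive relative. The lists held 2744 and 2059 peaks for HSPA1A and 3131 and 2040 for HSPA8, with median scores of 10.0, 13.0, 10.0 and 22.0. Summed over a list, scores came to 431515 and 147305 with HSPA1A and 927608 and 138277 with HSPA8. The score is the authors' whole number per peak, its meaning is not given in the sources used here, and read depth is unknown.

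The 3 genes have unrelated products. SLCO5A1 belongs to the organic anion transporting polypeptides, membrane carriers that move amphipathic organic ions into cells. HFM1 is a DNA helicase of germ cells that helps recombination intermediates become crossovers in meiosis. PDE3A is a phosphodiesterase that breaks down cyclic AMP, is inhibited by cyclic GMP and is known from heart muscle, platelets and oocytes. FLASH-seq peaks mark crosslinked RNA, and a peak within a gene body can come from the gene's own transcript or from any other RNA whose reads are placed there.

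The SLCO5A1 gene covers chromosome 8 from 69667046 to 69834978 (GRCh38, 168 kb). Its main peak began at 69690142 in all 4 lists with its end at 69690245 and 69690264 for HSPA1A (replicates 1 and 2) and at 69690255 and 69690268 for HSPA8 (likewise). It lay on the minus strand in every list. The low end was the same base 4 times and the high end varied over 23 bp, and 104 bases were common to all 4 lists. With HSPA1A it scored 1933 and 202, and with HSPA8 3011 and 157. The score was thus the lower of the pair in replicate 2 for both baits, but it stood high within each list. Its rank was 51 of 2744, 145 of 2059, 95 of 3131 and 188 of 2040 in that order. Written as a percentile, the share of a list's other peaks that rank below, this came to 98.2 and 93.0 for HSPA1A and 97.0 and 90.8 for HSPA8.

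A second SLCO5A1 peak, also on the minus strand, followed the main one after a gap of 58 to 80 bp. It lay from 69690326 to 69690374 in HSPA1A replicate 1, and 43 of its bases, 69690330 to 69690372, were common to all 4 lists. Its score was 155 and 17 with HSPA1A and 186 and 11 with HSPA8, with percentiles of 83.9, 56.9, 82.3 and 30.0. It was the weaker peak in each list. Within a list the main peak scored 12.5 and 11.9 times the second for HSPA1A and 16.2 and 14.3 times for HSPA8. The HSPA1A ratios averaged 12.2 ± 0.416 (SD, n = 2) and the HSPA8 ratios 15.2 ± 1.35 (SD, n = 2). In replicate 2 the ratios rest on second peaks that scored only 17 and 11, so small changes in those scores shift them. A difference between baits was not tested, since scores chose the gene and a bait has 2 lists.

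The HFM1 gene covers chromosome 1 from 91260766 to 91408007 (147 kb). Its peaks lay between 91387247 and 91387591 on the minus strand, which is the strand of the gene in the RefSeq promoter table. The main region, 17.2 kb downstream of the start site listed there, was divided differently in each list. HSPA8 replicate 1 had a single peak of 269 bp from 91387271 to 91387539 with a score of 2333. HSPA1A replicate 1 had 3 abutting or nearly abutting peaks covering 275 bases, with scores of 833, 594 and 325 from the low to the high end. HSPA1A replicate 2 had 4 peaks covering 291 bases, scoring 67, 64, 63 and 34. HSPA8 replicate 2 had 4 peaks covering 279 bases, scoring 36, 75, 22 and 28. The same stretch was therefore covered in each list, as 261 bases were common to all 4, or 87.6% of the bases covered in any.

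Some cut points between HFM1 peaks were shared. A peak ended at 91387321 in both lists numbered 2. A peak began at 91387501 in HSPA1A replicates 1 and 2 and in HSPA8 replicate 2, the lists that divided the region. The outer high end varied by 5 bp over the 4 lists, between 91387539 and 91387544, and the outer low end by 24 bp. The steepness inside the region differed too: the highest peak scored 2.56 times the lowest in HSPA1A replicate 1, 1.97 times in HSPA1A replicate 2 and 3.41 times in HSPA8 replicate 2.

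The best HFM1 peak ranked 175 and 398 with HSPA1A and 144 and 481.5 with HSPA8. Its percentile was 93.7 and 80.7 for HSPA1A and 95.4 and 76.4 for HSPA8. A small outer peak ending at 91387591 stood apart from the main region in 3 lists, with scores of 47 and 13 with HSPA1A and 40 in HSPA8 replicate 1. HSPA8 replicate 2 had no such peak, and its lowest HFM1 score was 22.

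The PDE3A gene covers chromosome 12 from 20368537 to 20688583 (320 kb). It held 1 peak in each list, on the plus strand, which is the strand of the gene in the promoter table. The peak ran from 20551446 to 20551549 in both HSPA1A lists, to 20551553 in HSPA8 replicate 1, and from 20551447 to 20551543 in HSPA8 replicate 2. All 4 lists had 97 bases in common, the low end moved by 1 bp and the high end by 10 bp. Both HSPA1A lists gave identical ends although their scores were 1389 and 160. The HSPA8 scores were 2016 and 115. The rank was 100 and 197.5 with HSPA1A and 175 and 305.5 with HSPA8, with percentiles of 96.4, 90.5, 94.4 and 85.1. The start site listed for PDE3A in the promoter table lies at 20572079, inside the gene span, so the peak sits 20.6 kb upstream of that start and 183 kb into the gene as annotated.

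**Figure D1:**
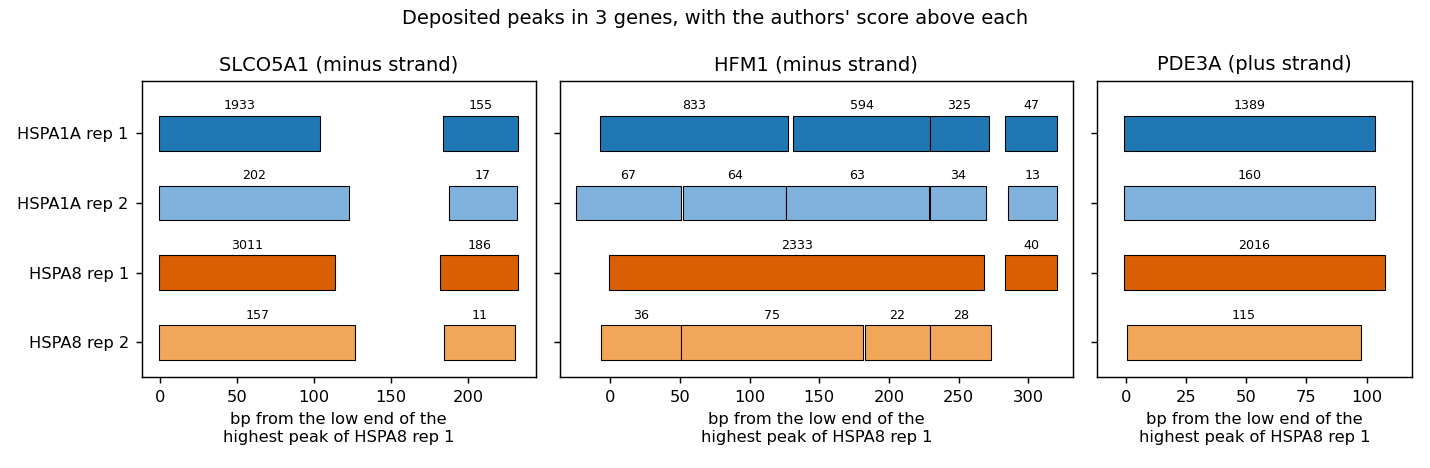
Deposited peaks in SLCO5A1, HFM1 and PDE3A, 1 row per list, drawn to scale in bp from the low end of the highest peak of HSPA8 replicate 1, with the authors' score above each bar. The main SLCO5A1 peak and the PDE3A peak each keep their low end within 1 bp over the lists. The HFM1 main region is 1 peak in HSPA8 replicate 1 and 3 or 4 peaks in the other lists.

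Shared ends were not part of the choice of these genes and can be set against other regions. Peaks of the same strand were joined over the lists, and 448 regions of the 25 chromosomes had exactly 1 peak in each list. The low end was identical in all 4 lists in 16.1% of them, as for the main SLCO5A1 peak, and differed by at most 1 bp in 36.6%, as for PDE3A. The high end differed by at most 10 bp in 80.8%, which holds for PDE3A but not for SLCO5A1, whose high end varied by 23 bp. The median spread over these regions was 2.00 bp at either end. The main SLCO5A1 and PDE3A peaks were wide for their lists, at width percentiles of 85.2 to 96.1 and 83.3 to 93.5. They were not set against peaks of like score. SLCO5A1 measured 104, 123, 114 and 127 bp and PDE3A 104, 104, 108 and 97 bp, against list medians of 48.0, 44.0, 57.0 and 51.0 bp.

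Outside these short stretches the 3 gene bodies were empty in all 4 lists. No member peak lay more than 300 bp from the main region of its gene, and no peak lay on the opposite strand. The nearest peak of the same list outside the gene was 193 to 467 kb away for SLCO5A1, 890 to 1129 kb for HFM1 and 827 kb for PDE3A. Peaks were sparse, as 3.99% to 11.5% of protein-coding genes of at least 100 kb had a peak in a given list. The distances were not set beside those around other peaks and are not read as particular to these genes. Other annotated genes inside the gene bodies did not overlap the member peaks and held 0 peaks. The closest was the pseudogene LOC728688, from 20551569 to 20554360, which begins after a gap of 15 bases beyond the PDE3A peaks. The next was RN7SKP29, a pseudogene of the 7SK RNA, 9849 bases beyond the SLCO5A1 peaks. Exons were not analysed here, so whether a peak is exonic or intronic is not given.

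Presence in every list was uncommon among genes, though the choice of the 3 genes fixed it for them. Of 19879 protein-coding genes, 0.805% had a peak in all 4 lists. A peak in any list was found on 7.74%. Among the 3355 of at least 100 kb, a size that includes all 3 genes, the shares were 2.62% and 20.3%. List by list, 11.5% and 7.63% of these long genes had a peak with HSPA1A and 11.5% and 3.99% with HSPA8. Regions that touched protein-coding genes and no other annotated gene numbered 1496, and 4.75% of them, 71 regions, were in all 4 lists. The SLCO5A1 main and second peaks, the HFM1 main region and the PDE3A peak were among the 71, while the outer HFM1 peak was not.

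Within that set the main regions stood near the top. By mean percentile over the 4 lists, SLCO5A1 was at place 2 with 94.8 ± 3.43 (SD, n = 4), PDE3A at place 3 with 91.6 ± 5.00 (SD, n = 4) and HFM1 at place 8 with 86.6 ± 9.41 (SD, n = 4). The 3 genes were read in the same lists, so these SDs do not measure the spread of the gaps between the means. List by list, SLCO5A1 stood above PDE3A and HFM1 throughout, and PDE3A above HFM1 except in HSPA8 replicate 1. The gaps were not tested. The second SLCO5A1 peak was at place 33 with a mean of 63.3. Place 1 was a minus-strand peak in IGF2R, which encodes the receptor that carries insulin-like growth factor II to lysosomes. Every percentile was over 90 in 2.82% of the 71, which were the IGF2R and SLCO5A1 regions.

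**Figure D2:**
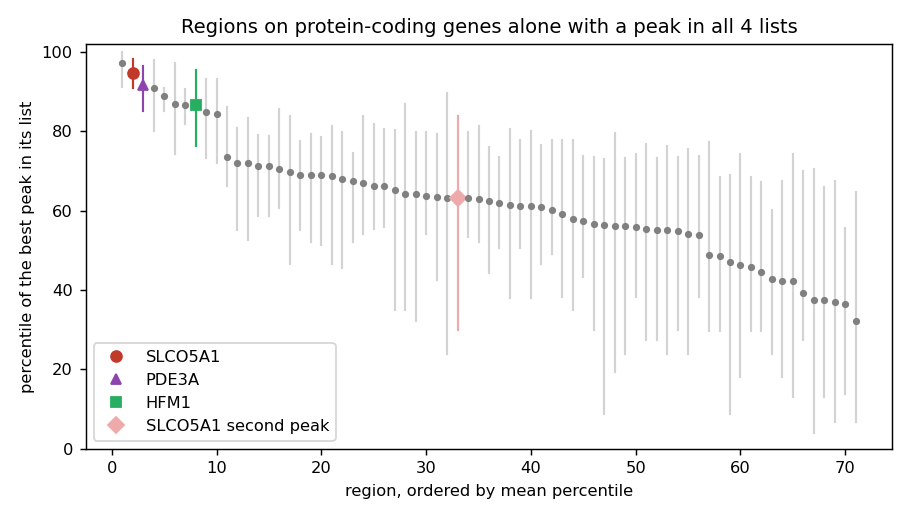
The 71 regions on protein-coding genes alone with a peak in all 4 lists, ordered by mean percentile of the best peak (points), with lines from the lowest to the highest list. SLCO5A1, PDE3A and HFM1 stand at places 2, 3 and 8, and the second SLCO5A1 peak at place 33.

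The order of the 3 genes was nearly the same in each list. Among regions on protein-coding genes alone, SLCO5A1 was at place 1 of 622, 4 of 320, 1 of 870 and 4 of 130 in the order used above. PDE3A followed at places 3, 6, 3 and 5, and HFM1 at places 4, 15, 2 and 8. HFM1 thus stood above PDE3A only in HSPA8 replicate 1, the list that gave its region as a single peak. IGF2R was at places 2, 1, 4 and 1, with scores of 1824 and 4424 with HSPA1A and 991 and 2133 with HSPA8. LINGO1, whose peak overlaps a non-coding gene and so falls outside this ranking, had best scores of 1311 and 3137 for HSPA1A and 768 and 1536 for HSPA8. The scores of IGF2R and LINGO1 were higher in replicate 2 than in replicate 1 for each bait, and those of SLCO5A1, HFM1 and PDE3A were lower. These are raw scores of different lists, which share no known scale.

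**Figure D3:**
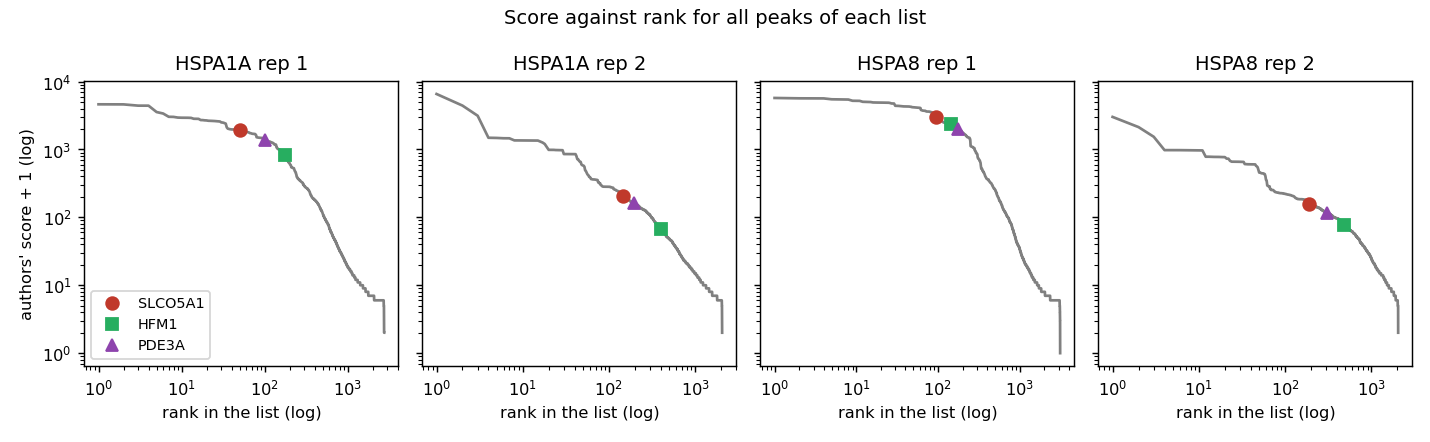
Authors' score plus 1 against rank for every peak of each list (grey line, log axes), with the best peak of SLCO5A1, HFM1 and PDE3A marked. The marked peaks rank between 51 and 481.5, and SLCO5A1 stands highest of the 3 in every list.

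Ratios of scores were then taken within lists, where the values share 1 scale. SLCO5A1 scored 1.39 and 1.26 times PDE3A with HSPA1A and 1.49 and 1.37 times with HSPA8. The HSPA1A ratios averaged 1.33 ± 0.0913 (SD, n = 2) and the HSPA8 ratios 1.43 ± 0.0907 (SD, n = 2), and the baits overlapped. SLCO5A1 over HFM1 ranged more widely, with 2.32 and 3.01 for HSPA1A and 1.29 and 2.09 for HSPA8. The HFM1 score is that of 1 peak over the region in HSPA8 replicate 1 and of the best of 3 or 4 peaks elsewhere. How far this division affects the ratios to HFM1 was not tested. PDE3A over HFM1 was 1.67 and 2.39 for HSPA1A and 0.864 and 1.53 for HSPA8, where the first HSPA8 value is the list with the undivided HFM1 peak. The ratio of SLCO5A1 to PDE3A stayed within a narrow range while both scores differed by about an order of magnitude between replicate numbers. Scores summed over whole lists were also lower in replicate 2 for both baits. The drop is therefore not read as particular to these genes.

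**Figure D4:**
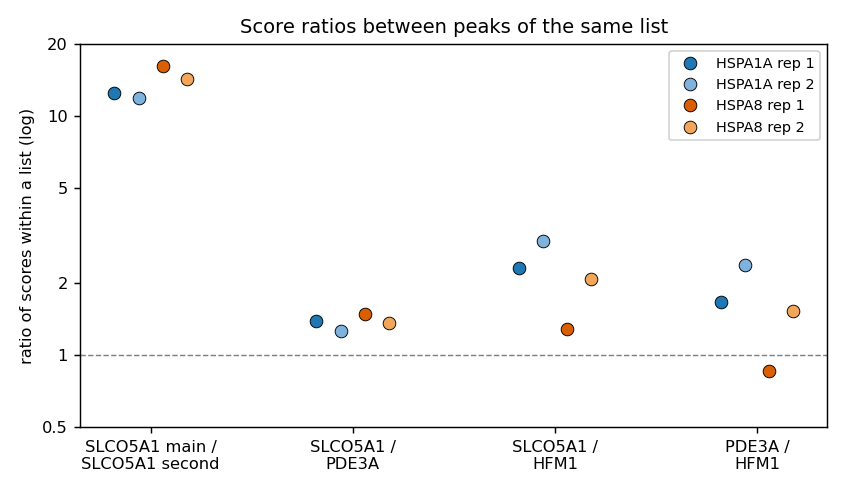
Ratios of authors' scores between peaks of the same list (log axis), 1 point per list, with a dashed line at 1. SLCO5A1 over PDE3A lies between 1.26 and 1.49, SLCO5A1 main over second peak between 11.9 and 16.2, and PDE3A over HFM1 falls below 1 only in HSPA8 replicate 1.

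All 3 genes had a higher percentile in both lists numbered 1 than in either list numbered 2. The same held for 56.3% of the 71 protein-coding regions and for 58.0% of the 648 regions of the 25 chromosomes in all 4 lists (15.7% of such regions), so it does not set these genes apart. Means by bait are given with SDs that hold the gap between replicate numbers, so they do not measure the spread of a gap between baits. Within a replicate number, SLCO5A1 and PDE3A had the higher percentile with HSPA1A both times, and HFM1 only in replicate 2. SLCO5A1 averaged 95.6 ± 3.66 (SD, n = 2) with the first bait, HSPA1A, and 93.9 ± 4.36 (SD, n = 2) with HSPA8. HFM1 had 87.2 ± 9.16 (SD, n = 2) and 85.9 ± 13.4 (SD, n = 2). PDE3A had 93.4 ± 4.20 (SD, n = 2) and 89.8 ± 6.63 (SD, n = 2). Percentiles from lists of unequal length do not measure a change between baits.

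The genes most like each member were found by the mean absolute difference of best percentiles over the 4 lists. The percentiles derive from the scores that chose the members, and the differences were not set beside those of other genes. By list, 33.6% to 59.0% of other peaks in the rank range of the members lay on ribosomal RNA genes. Likeness here is nearness in rank alone and is not read as particular to the members. For PDE3A the nearest were the large-subunit ribosomal RNA genes RNA5-8SN2, RNA5-8SN3 and RNA5-8SN1, at 1.13, 1.18 and 1.27 percentile points, then the pseudogene RNA5-8SP10 at 1.77 and the mitochondrial RNR2, the large mitochondrial ribosomal RNA, at 2.49. For SLCO5A1 they were RNA5-8SP10 at 1.44, RNA5-8SN1, RNA5-8SN3 and RNA5-8SN2 at 2.16, 2.79 and 2.81, and the ribosomal pseudogene LOC110467529 at 3.15. The RNA5-8SN copies are near-identical in sequence, and how the authors divided reads among them is not given in the sources used here. For HFM1 the nearest were RYR2, a calcium release channel, at 2.39, the overlapping pair AAMDC and INTS4 at 2.84 each, SNORD3A, a U3 small nucleolar RNA gene, at 5.01 and UNC45B, a myosin chaperone, at 5.17. RYR2 scored 716 and 78 with HSPA1A and 942 and 66 with HSPA8, beside 833, 67, 2333 and 75 for HFM1.

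The peaks next to the members in rank were mostly on ribosomal RNA genes, as were many peaks of similar rank. Of the 24 peaks just above or just below the best member peak in the 4 lists, 15 lay on rRNA genes, 1 on the pseudogene RNA18SP5, 4 on unplaced scaffolds, 2 on the protein-coding genes PATJ and FAM234B, 1 on a small nuclear RNA gene and 1 on no gene. Peaks on rRNA genes made up 44.6% of the 747 other peaks ranked between the highest and the lowest of the 3 best member peaks, and 62.5% of these 24. By list the share in that range was 59.0% and 52.2% for HSPA1A and 38.5% and 33.6% for HSPA8, while over whole lists 329 of 2744, 468 of 2059, 284 of 3131 and 481 of 2040 peaks lay on rRNA genes. The HSPA8 lists held 353 and 617 peaks on scaffolds and the HSPA1A lists 0. Scaffold peaks were matched to no gene, so these shares cannot be compared between baits. The count of 15 was not tested against these shares and is not read as particular to the members. The best peak of RNA18SN1, an 18S gene on chromosome 21, scored 4622 and 1486 with HSPA1A and 5656 and 977 with HSPA8. The best peak of RNA28SN1, a 28S gene, scored 3557, 581, 5195 and 444. SLCO5A1 came to 54.3% and 34.8% of that 28S peak for HSPA1A and 58.0% and 35.4% for HSPA8. It exceeded 27 of 36, 47 of 59, 21 of 29 and 42 of 53 peaks on RNA28SN1. Nor do those sources say where multi-mapping reads were placed. Whether the member regions resemble other transcribed sequence was not tested, as no genome sequence was used.

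The strand of the peaks was among the values in view when the genes were chosen, so it is described with no test. Peaks on HFM1 and PDE3A, the members with an entry in the promoter table, lay on the strand of the gene in all 4 lists. Over all peaks on exactly 1 protein-coding gene of known strand, the shares on the strand of the gene were 73.3% of 460 and 49.8% of 249 for HSPA1A and 85.2% of 621 and 51.0% of 98 for HSPA8. The shares were near even in both lists numbered 2, so a peak on the strand of its gene is common in every list. The strand of SLCO5A1 was not checked against a table.

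The genes related to each member were counted too. Leaving out the members, 3 of 55 relatives (5.45%) had a peak in any list, beside 7.74% of all protein-coding genes. Of 11 matched organic anion transporter genes, SLCO5A1 alone had a peak in any list. Of 26 genes of meiotic crossing-over and synapsis, HFM1 had a peak in all 4 lists and RNF212B, a crossover factor, in HSPA8 replicate 1 with a score of 5, where its peak also overlaps LOC105370406. Of 21 cyclic nucleotide phosphodiesterase genes, PDE3A and PDE10A had a peak in all 4 lists and PDE11A in both HSPA1A lists. The PDE10A peak scored 297 and 147 for HSPA1A and 473 and 95 for HSPA8, and overlapped RNA5SP226, a 5S ribosomal RNA pseudogene inside the gene. The PDE11A peak scored 13 and 5 and overlapped RNU6-629P, a U6 pseudogene. A peak was present on 4.02%, 2.34%, 4.66% and 1.31% of protein-coding genes in the order used above. The relatives were counted, not tested, against these shares.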

How the data were processed

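Peak lists were analysed, 1 per replicate of HSPA1A and HSPA8. Per the labels' protocols, random tags in the adapters served to merge PCR duplicates. The submitters' processing notes name GRCh38, Trim Galore 0.4.4, FastQC, STAR 2.6.0b and deepTools, with no role for each. The peak caller and its threshold are not given in the sources used here. The authors' deposited score per peak is a whole number of unknown meaning. Ranks, percentiles and ratios were taken within a list, with tied peaks given their mean rank. Raw scores of different lists were set side by side only as a description, since they share no known scale. Other deposited columns are positions, printed 1-based.

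Peaks were set against 58998 genes on 25 chromosomes of the RefSeq table for GRCh38.p14 (59792 rows) by any overlap. That table gives no strand, and the RefSeq promoter table for GRCh38.p14 listed 2 of the 3 genes. The members and gene lists were chosen with earlier results of these data known. Named genes are the members, their neighbours in rank, the 5 most alike, IGF2R, LINGO1 and family genes with peaks in at least 3 lists. RNF212B, PDE11A and the non-coding genes and pseudogenes beside or under a named peak fall outside this rule and were named after their values were seen. Procedures were tested on simulated data. Python 3.11.15, numpy 2.4.6, pandas 2.3.3 and matplotlib 3.10.9 were used.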

Additional observations from a re-analysis of the deposited data

How the results depend on the processing

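Of 131 values under other settings, 126 stayed within 1 SD or within 1.5 times the value reported and 5 moved. Many of these values could not move. Leaving out a list, or averaging lists of 1 replicate number, cannot shift a mean percentile by 1 SD of the same lists. Every list held a peak of each member, which also fixed the counts of lists. The 126 is therefore not a measure of stability. With only peaks above the median score of a list, the mean percentile fell to 89.4 for SLCO5A1, 72.8 for HFM1 and 82.9 for PDE3A, since the peaks removed all rank below, and crossover genes with a peak numbered 1. Leaving out each list in turn gave mean percentiles of 93.6 to 96.1 for SLCO5A1, 83.6 to 89.9 for HFM1 and 90.0 to 93.8 for PDE3A, and 1 to 2 crossover genes, 1 without HSPA8 replicate 1. With abundant RNA genes removed the means were 96.8, 91.0 and 94.5. With scaffold peaks left out, and so the 25 chromosomes only, they were 95.1, 87.9 and 92.6. No label ties a replicate number to a date or batch. Within the replicate block the lists numbered 1 averaged 97.6, 94.5 and 95.4 and those numbered 2 averaged 91.9, 78.6 and 87.8 for SLCO5A1, HFM1 and PDE3A. Over 648 regions, which are not independent, lists with the same number departed together from the mean of their bait (correlation 0.707), and 2 pairs do not settle a pairing. Read depth is unknown, which limits every score and every absent peak.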
